A study of Homo sapiens with 4 samples.

Results

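Receptor tyrosine kinases and the ephrin ligands of the Eph receptors were followed as a group of 48 named genes in 143B cells, a human osteosarcoma line, with and without knockdown of the RNA demethylase FTO. The group held 30 receptors of the growth factor, collagen and angiopoietin type, 11 Eph receptors and 7 ephrins. Members were found by their gene symbol in the deposited table of 11972 protein-coding genes, and 31 of the 48 were found: 19 of the 30 receptors, 6 of the 11 Eph receptors and 6 of the 7 ephrins. ERBB3, ERBB4, PDGFRB, CSF1R, KDR, MST1R, RET, ALK, NTRK2, NTRK3, TEK, EPHA1, EPHA3, EPHA5, EPHA7, EPHB3 and EFNA1 were not analysed here.

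The 4 libraries fell into 2 groups of 2. The shFTO group was 143B cells stably carrying a plasmid for a short hairpin RNA against FTO, and the shCtrl group was 143B cells stably carrying a control plasmid. Both groups were grown in high-glucose medium with serum and puromycin, and the labels gave neither the number of hairpins nor of clones. Polyadenylated RNA was sequenced, and levels were given as FPKM, fragments per kilobase of transcript at a common total of mapped fragments, which allows levels of different genes to be compared per length. The labels do not state whether the pair of libraries in a group stems from independent cultures, so the p-values speak only of the spread among these 4 libraries, which could be technical.

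Receptor tyrosine kinases are single-pass membrane proteins that dimerise when a ligand binds, phosphorylate each other on tyrosine and recruit adaptors that feed the RAS-ERK and PI3K-AKT pathways. Eph receptors are the largest family among them. Their ephrin ligands are themselves held in the membrane, by a lipid anchor for the ephrin-A class and by a transmembrane segment for the ephrin-B class, so that both contacting cells can signal. EPHB4 and ephrin-B2, encoded by EFNB2, are known in bone for their signalling between osteoblasts and osteoclasts, and EGFR, MET, PDGFRA, DDR2, AXL and EPHA2 are receptors often studied in cells of mesenchymal tumours.

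FPKM summed to between 200555 and 212531 per library, and since FPKM hold no counts the read depth was unknown. FTO itself was lower in the knockdown cells, at 0.268 and 0.242 FPKM in shFTO, against 1.14 and 0.665 FPKM in shCtrl. It reached 1 FPKM only in shCtrl replicate 1, under the minimum level of the test given below, so FTO was not among the genes tested. Of 8 markers of mesenchymal and bone-forming cells 6 were found, with summed levels of 442 and 404 FPKM in shFTO, against 351 and 369 FPKM in shCtrl. The markers did not move together: fibronectin (FN1) had 43 and 89 FPKM in shFTO, against 12.3 and 9.2 FPKM in shCtrl (log2 difference 2.43, limma adjusted p = 0.141), and SPARC, a matrix protein of bone, had 67.4 and 61.3 FPKM in shFTO, against 82.1 and 85.3 FPKM in shCtrl (log2 difference -0.38, limma adjusted p = 0.412). Vimentin (VIM) reached 329 and 253 FPKM in shFTO, against 253 and 271 FPKM in shCtrl, while RUNX2, the osteoblast transcription factor, stayed under 1 FPKM in each library, at most 0.577. COL1A1, the bone collagen gene, had 1.72 and 0.643 FPKM in shFTO, against 1.94 and 2.07 FPKM in shCtrl. Of 7 epithelial markers, KRT18, KRT8 and EPCAM were found, with summed levels of 150 and 124 FPKM in shFTO, against 175 and 192 FPKM in shCtrl. Of 6 endothelial markers ESAM and ERG were found, at a sum of 2.44 and 2.74 FPKM in shFTO, against 1.56 and 1.84 FPKM in shCtrl. Of 7 blood cell markers CD68 and LYZ were found, at a sum of 14.6 and 26.8 FPKM in shFTO, against 13.1 and 14.7 FPKM in shCtrl, and the defining markers PECAM1, CDH5 and PTPRC were not analysed here. The part of other cell types or cell states in the differences of the members was not tested.

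The comparison of shFTO with shCtrl asked which of these receptors and ligands changed when FTO was lowered. No member passed the threshold, a Benjamini-Hochberg adjusted p under 0.05 in limma over all 10873 tested genes. The minimum level for the test, at least 1 FPKM in at least 2 libraries, was met by 29 of the 31 members, and EPHB6 and EFNA3 did not meet it. In limma 0 of the 29 were called, against 3 of 10873 genes (0.0276%), and 5 of the 29 had an unadjusted p under 0.05, against 10.9% of all tested genes. Of those 5, EFNB1 and FGFRL1 were higher in shFTO (7.11% of all tested genes were higher at that level) and KIT, EPHA2 and EPHB1 were lower (3.74% of all tested genes). With 2 libraries against 2, an exact permutation test of 1 gene (two-sided) can give no p below 0.33.

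Promoter sequences of those 5 members are shown because they carried the smallest p-values, whatever their direction. They run from 250 bases before to 50 bases after the RefSeq transcription start (GRCh38.p14, each read on its gene's own strand), 5′ to 3′, with the GC box GGGCGG and its reverse complement CCGCCC in capitals. The GC box is the motif bound by SP-family factors.
EFNB1 (chrX:68828771-68829070, plus strand): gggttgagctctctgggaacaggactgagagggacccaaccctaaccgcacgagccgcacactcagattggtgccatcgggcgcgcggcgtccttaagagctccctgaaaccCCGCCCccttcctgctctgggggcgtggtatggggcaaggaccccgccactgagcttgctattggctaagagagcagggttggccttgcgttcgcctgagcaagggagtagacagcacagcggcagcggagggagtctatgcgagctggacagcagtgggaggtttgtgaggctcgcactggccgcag
FGFRL1 (chr4:1012214-1012513, plus strand): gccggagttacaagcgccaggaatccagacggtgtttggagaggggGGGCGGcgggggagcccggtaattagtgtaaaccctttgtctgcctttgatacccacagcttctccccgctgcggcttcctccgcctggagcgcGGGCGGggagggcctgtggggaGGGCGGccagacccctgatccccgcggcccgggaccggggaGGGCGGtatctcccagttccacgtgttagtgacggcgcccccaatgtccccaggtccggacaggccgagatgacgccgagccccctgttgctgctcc
KIT (chr4:54657707-54658006, plus strand): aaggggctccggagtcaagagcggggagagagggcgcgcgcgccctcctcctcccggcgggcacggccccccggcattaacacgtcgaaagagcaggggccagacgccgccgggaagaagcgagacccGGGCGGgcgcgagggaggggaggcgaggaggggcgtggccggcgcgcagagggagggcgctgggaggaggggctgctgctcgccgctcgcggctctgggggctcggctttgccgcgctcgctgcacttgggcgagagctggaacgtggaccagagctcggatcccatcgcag
EPHA2 (chr1:16156020-16156319, minus strand): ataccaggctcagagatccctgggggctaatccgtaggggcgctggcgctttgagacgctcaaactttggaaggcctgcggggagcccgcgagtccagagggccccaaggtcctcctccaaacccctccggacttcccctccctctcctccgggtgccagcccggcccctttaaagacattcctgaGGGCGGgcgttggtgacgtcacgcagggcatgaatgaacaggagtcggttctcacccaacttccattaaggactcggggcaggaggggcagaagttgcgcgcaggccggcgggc
EPHB1 (chr3:134795010-134795309, plus strand): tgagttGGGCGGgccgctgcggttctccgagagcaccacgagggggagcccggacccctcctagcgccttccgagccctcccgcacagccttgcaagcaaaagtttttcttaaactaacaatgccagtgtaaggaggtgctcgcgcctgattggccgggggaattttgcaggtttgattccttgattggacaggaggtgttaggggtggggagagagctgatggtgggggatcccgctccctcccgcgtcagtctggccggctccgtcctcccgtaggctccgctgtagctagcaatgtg
FGFRL1 held 4 GC boxes in this window, and the other windows shown held 1 each. Gene coordinates in the deposited table are in hg19 and the windows in GRCh38.p14. Whether the RefSeq start of a window is also the start of the listed gene was not tested. The FGFRL1 window, with its GC boxes, may thus lie at a start inside the gene and reach into coding sequence. A GC box on either strand was found in 22 of the 28 member promoters in the RefSeq table (78.57%), in 72.23% of 9347 promoters of other and member genes in the deposited table and in 44.59% of all 27305 promoters. The AP-1 motif TGANTCA, searched on both strands, was in 4 of the 28 member promoters (14.29%), in 4.41% of promoters of genes in the deposited table and in 7.76% of all promoters, and was in none of the 5 shown. The TEAD motif GGAATG (reverse complement CATTCC) was in 2 of the 28 (7.14%), in 10.45% of promoters of genes in the deposited table and in 14.05% of all promoters. Of those shown, EPHA2 held it, in the letters cattcc just before the GC box. The E-box CACGTG, which reads the same on both strands, was in 2 of the 28 (7.14%), FGFRL1 among them, in 10.47% of promoters of genes in the deposited table and in 7.43% of all promoters. These matches describe letters in the windows and show no binding.

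**Figure D1:**
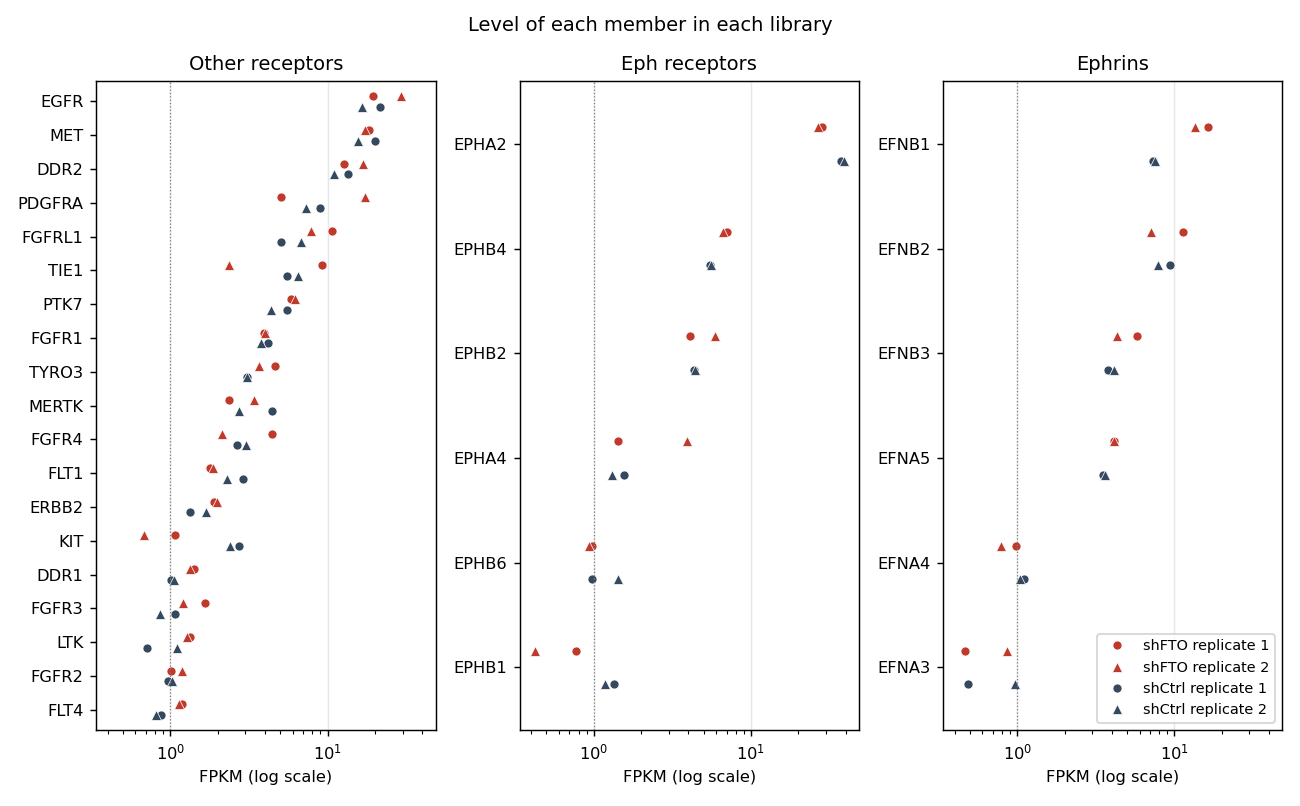
Level of each of the 31 members in each library, in FPKM on a log axis, in 3 panels for receptors other than Eph receptors, Eph receptors and ephrins, ordered by mean level. Red symbols are shFTO libraries and dark symbols shCtrl libraries (circles replicate 1, triangles replicate 2), and the dotted line marks 1 FPKM. EPHA2 is the highest member in every library except shFTO replicate 2, where EGFR is above it at 29.5 FPKM.

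Among the 25 member receptors found, a few genes carried most of the summed level. EPHA2, EGFR, MET and DDR2 together carried 52.3% and 54.4% of this sum in the shFTO libraries, against 58.8% and 56.7% in the shCtrl libraries. The sum over the 25 receptors was 151 and 166 FPKM in shFTO, against 157 and 145 FPKM in shCtrl, so the groups overlapped. AXL, a receptor outside the group that is described below with its relatives, is not in this sum and stood above every member. By contrast ERBB2, KIT, FLT1, DDR1, FGFR2, FGFR3, LTK, FLT4, EPHA4, EPHB1, EPHB6, EFNA3 and EFNA4 averaged under 3 FPKM in each group.

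Among ephrins, EFNB1 was the member with the smallest p-value of the group. It encodes ephrin-B1, a transmembrane ligand of EphB receptors whose loss in humans causes craniofrontonasal syndrome, and it lies on chromosome X at 68048840 to 68061990 (hg19). EFNB1 had 16.5 and 13.6 FPKM in the shFTO libraries, against 7.27 and 7.53 FPKM in the shCtrl libraries. Both shFTO libraries were above both shCtrl libraries, with means of 15 ± 2.02 FPKM in shFTO, against 7.4 ± 0.187 FPKM in shCtrl (SD, n = 2 each), a ratio of 2.03. The difference on the log2(FPKM + 1) scale was 0.93 (SE 0.16, 95% confidence interval 0.53 to 1.33), which did not pass (limma adjusted p = 0.17). Without shFTO replicate 2 the difference was 1.06, and without shFTO replicate 1 it was 0.80.

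The other ephrin-B genes were closer between groups. EFNB2, the ligand of EPHB4, had 11.3 and 7.11 FPKM in shFTO, against 9.38 and 7.89 FPKM in shCtrl, with the shCtrl values lying between the shFTO values. EFNB3 had 5.76 and 4.32 FPKM in shFTO, against 3.77 and 4.11 FPKM in shCtrl, without overlap, and a log2 difference of 0.28 (limma adjusted p = 0.62). Ephrin-B1 accounted for 42.2% and 44.2% of the summed ephrin FPKM in shFTO and for 28.4% and 29.9% in shCtrl. Among ephrin-A genes, EFNA5 was the highest, with nearly identical values within each group. It had 4.12 and 4.11 FPKM in shFTO, against 3.54 and 3.62 FPKM in shCtrl, and its log2 difference of 0.16 did not pass (limma adjusted p = 0.736). In the authors' deposited table EFNA5 had the smallest p of the members, p = 0.0074, with q = 0.503. EFNA4 had 0.986 and 0.792 FPKM in shFTO, against 1.1 and 1.05 FPKM in shCtrl. EFNA3, whose gene starts 9.3 kb beyond EFNA4 on chromosome 1, had 0.465 and 0.861 FPKM in shFTO, against 0.485 and 0.969 FPKM in shCtrl, under the minimum level of the test.

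The Eph receptor with the highest level, EPHA2, was lower in shFTO. EPHA2 binds ephrin-A ligands and is a kinase studied in many solid tumours, and its gene lies on chromosome 1 at 16450832 to 16482582 (hg19, minus strand). It had 28.3 and 26.5 FPKM in the shFTO libraries, against 37.4 and 38.8 FPKM in the shCtrl libraries. The groups were well separated against their spread, at 27.4 ± 1.26 FPKM in shFTO, against 38.1 ± 1.02 FPKM in shCtrl (SD, n = 2 each), a ratio of 0.719. The log2 difference was -0.46 (SE 0.13, 95% confidence interval -0.79 to -0.14), which did not pass (limma adjusted p = 0.33). Leaving out any 1 library moved it only between -0.51 and -0.42, the narrowest such range among the 5 members with an unadjusted p under 0.05. The limma unadjusted p of EPHA2 was 0.0137 without a block and 0.0512 with the replicate number as a block.

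EPHB1, a receptor for ephrin-B ligands, was lower at a far lower level. EPHB1 had 0.767 and 0.423 FPKM in shFTO, against 1.34 and 1.19 FPKM in shCtrl, without overlap. Its log2 difference was -0.51 (SE 0.16, limma adjusted p = 0.367), and -1.02 with a pseudocount of 0.1, which did not pass either. EPHB1 met the minimum level through its shCtrl libraries alone. Leaving out 1 library gave -0.67 to -0.36, and the limma unadjusted p was 0.0042 when shFTO replicate 1 was left out, 0.0715 when shFTO replicate 2 was, and 0.0995 and 0.0557 when shCtrl replicate 1 or 2 was.

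EPHB4, the receptor for ephrin-B2, lay in the other direction from EPHA2. It had 7.09 and 6.68 FPKM in shFTO, against 5.52 and 5.54 FPKM in shCtrl, above shCtrl in both libraries, and its log2 difference of 0.27 did not pass (limma adjusted p = 0.566). EPHB4 overlaps the listed gene SLC12A9 on the opposite strand, and the sources used here do not give the use of strand in counting. EPHB2 had 4.09 and 5.87 FPKM in shFTO, against 4.33 and 4.43 FPKM in shCtrl, with overlap. EPHB6, which encodes a receptor without kinase activity, had 0.973 and 0.926 FPKM in shFTO, against 0.974 and 1.43 FPKM in shCtrl.

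The ratio of summed Eph receptor to summed ephrin FPKM was chosen after its values were seen. It largely restates that EPHA2 was lower and EFNB1 higher. Summed FPKM of the 6 Eph receptors were 42.6 and 44.3 in shFTO and 51.1 and 52.7 in shCtrl, and those of the 6 ephrins were 39.1 and 30.8 in shFTO and 25.5 and 25.2 in shCtrl. Eph receptor transcripts were therefore 1.09 and 1.44 times ephrin transcripts in shFTO and 2 and 2.1 times in shCtrl. EPHA2 took 66.4% and 59.8% of Eph receptor FPKM in shFTO and 73.1% and 73.7% in shCtrl. Ephrin-B genes took 85.7% and 81.3% of ephrin FPKM in shFTO and 79.9% and 77.6% in shCtrl. EPHA2 binds ephrin-A ligands, so the ratio does not set receptors against their own ligands. For none of these sums was a test made.

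**Figure D2:**
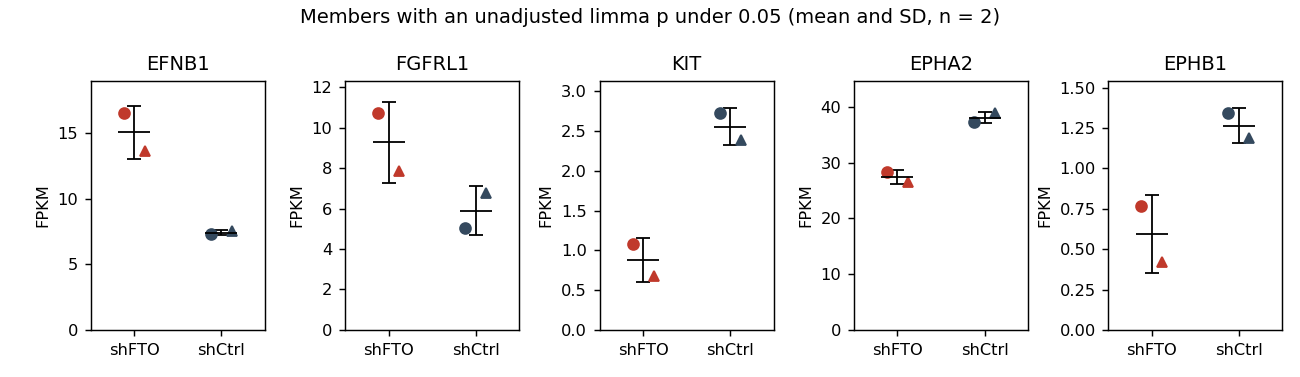
FPKM of the 5 members with an unadjusted limma p under 0.05, with shFTO left of shCtrl in each panel. Points are libraries (circle replicate 1, triangle replicate 2), and bars are the mean and SD over 2 libraries. EFNB1 and FGFRL1 lie higher in shFTO and KIT, EPHA2 and EPHB1 lower, without overlap of the groups in any panel. The choice by p favours such genes, and the groups did not overlap for 42.6% of all tested genes.

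Among the other receptors, KIT had the largest difference of either sign relative to its level. KIT is the receptor for stem cell factor, known from mast cells, melanocytes, germ cells and gastrointestinal stromal tumours, and lies on chromosome 4 at 55524085 to 55606881 (hg19). It had 1.08 and 0.682 FPKM in the shFTO libraries, against 2.72 and 2.39 FPKM in the shCtrl libraries. Every shFTO value was below every shCtrl value, with means of 0.879 ± 0.279 FPKM in shFTO, against 2.56 ± 0.232 FPKM in shCtrl (SD, n = 2 each), a ratio of 0.344. The log2 difference was -0.93 (SE 0.17, 95% confidence interval -1.34 to -0.51, limma adjusted p = 0.186) and -1.47 with a pseudocount of 0.1, the larger value because the added 1 FPKM weighs on so low a gene. Without shFTO replicate 1 the log2 difference was -1.08, and without shFTO replicate 2 it was -0.78.

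PDGFRA, whose gene lies 359.7 kb from KIT on the same chromosome and strand, had no such separation of the groups. PDGFRA encodes the alpha receptor for platelet-derived growth factors, a marker of mesenchymal cells. It had 5.05 and 17.4 FPKM in the shFTO libraries, against 8.9 and 7.28 FPKM in the shCtrl libraries. The shFTO libraries lay on either side of the shCtrl pair and differed 3.44-fold from each other. The log2 difference was 0.22 (SE 0.50, limma adjusted p = 0.911). It was 1.02 without shFTO replicate 1, where it passed (limma adjusted p = 0.0315), and -0.58 without shFTO replicate 2 (limma adjusted p = 0.233).

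The ERBB family was represented by EGFR and ERBB2. EGFR, the receptor for epidermal growth factor and its relatives, had 19.6 and 29.5 FPKM in shFTO, against 21.6 and 16.6 FPKM in shCtrl, with overlap (log2 difference 0.33, SE 0.24, limma adjusted p = 0.656). Leaving out shFTO replicate 1 gave 0.61 and leaving out shFTO replicate 2 gave 0.043. Leaving out shCtrl replicate 1 gave 0.51 and leaving out shCtrl replicate 2 gave 0.15, and EGFR passed in none of these 4 fits (lowest limma adjusted p = 0.142). ERBB2, the family member with no known ligand of its own, had 1.9 and 1.99 FPKM in shFTO, against 1.34 and 1.69 FPKM in shCtrl. ERBB2 overlaps the listed genes MIEN1 and PGAP3 on the opposite strand, so the limit given for EPHB4 applies to it too. MET, the hepatocyte growth factor receptor, had 18.4 and 17.3 FPKM in shFTO, against 19.9 and 15.6 FPKM in shCtrl. Its shFTO values lay inside the shCtrl range, with a log2 difference of 0.01 and a 95% confidence interval of -0.40 to 0.43.

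The FGF receptors differed among themselves. FGFRL1, a family member that binds FGF and lacks the kinase domain, was the highest of them and had 10.7 and 7.88 FPKM in shFTO, against 5.03 and 6.76 FPKM in shCtrl. It did not overlap between groups and had a log2 difference of 0.58 (SE 0.22, 95% confidence interval 0.04 to 1.11, limma adjusted p = 0.436). Its difference depended on the libraries used, at 0.38 when shFTO replicate 1 was left out (limma unadjusted p = 0.121) and 0.78 when shFTO replicate 2 was (limma unadjusted p = 0.00713). Leaving out shCtrl replicate 1 gave 0.39 (limma unadjusted p = 0.214), and leaving out shCtrl replicate 2 gave 0.76 (limma unadjusted p = 0.0394). With the replicate number as a block its limma unadjusted p was 0.0541. Its gene lies at the tip of chromosome 4 (1003724 to 1020685, hg19), 774.3 kb from FGFR3. FGFR3 had 1.66 and 1.21 FPKM in shFTO, against 1.07 and 0.857 FPKM in shCtrl, also without overlap (log2 difference 0.31, limma adjusted p = 0.555). FGFR1, the main FGF receptor of mesenchymal cells, had 3.92 and 3.97 FPKM in shFTO, against 4.15 and 3.75 FPKM in shCtrl, and its log2 difference of 0.00 had a 95% confidence interval of -0.38 to 0.38. FGFR2 ran from 1.02 to 1.18 FPKM in shFTO and from 0.971 to 1.02 FPKM in shCtrl. FGFR4 had 4.42 and 2.13 FPKM in shFTO, against 2.65 and 3.05 FPKM in shCtrl.

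Receptors for collagen were higher in the mean without passing. DDR2, a fibrillar collagen receptor of mesenchymal cells, had 12.7 and 16.8 FPKM in shFTO, against 13.4 and 11.1 FPKM in shCtrl, with overlap. DDR1, its relative of epithelial cells, had 1.42 and 1.34 FPKM in shFTO, against 1.01 and 1.06 FPKM in shCtrl, without overlap (log2 difference 0.22, limma adjusted p = 0.593). PTK7, a pseudokinase of planar cell polarity and Wnt signalling, had 5.83 and 6.23 FPKM in shFTO, against 5.55 and 4.35 FPKM in shCtrl (log2 difference 0.25, limma adjusted p = 0.646).

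Receptors known from blood vessels were present at low to moderate levels. FLT1, a receptor for VEGF-A, had 1.78 and 1.88 FPKM in shFTO, against 2.9 and 2.28 FPKM in shCtrl, lower without overlap (log2 difference -0.34, SE 0.16, limma adjusted p = 0.517). FLT4, the receptor for the lymphatic factors VEGF-C and VEGF-D, had 1.18 and 1.14 FPKM in shFTO, against 0.874 and 0.814 FPKM in shCtrl, higher without overlap (log2 difference 0.23, limma adjusted p = 0.578). TIE1, the orphan partner of the angiopoietin receptor TEK, had 9.29 and 2.35 FPKM in shFTO, against 5.53 and 6.5 FPKM in shCtrl. Its shFTO libraries lay on either side of the shCtrl pair and differed 3.95-fold. Of the endothelial markers found, ESAM had 0.83 and 0.455 FPKM and ERG 1.61 and 2.28 FPKM in shFTO replicates 1 and 2. These markers moved in opposite ways, and a link of either with TIE1 was not tested.

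The TAM receptors bind GAS6 and protein S and take part in the clearance of dying cells. TYRO3 had 4.61 and 3.65 FPKM in shFTO, against 3.06 and 3.05 FPKM in shCtrl, higher without overlap (log2 difference 0.33, SE 0.17, limma adjusted p = 0.54). MERTK had 2.34 and 3.41 FPKM in shFTO, against 4.41 and 2.75 FPKM in shCtrl, with overlap. AXL, the third TAM receptor, is no member but was tested as a listed relative, and stood above every member at 73.1 and 62.6 FPKM in shFTO, against 93.4 and 91.1 FPKM in shCtrl (log2 difference -0.44, limma adjusted p = 0.373). LTK, a receptor related to ALK whose gene lies 43.8 kb from TYRO3 on chromosome 15, had 1.34 and 1.28 FPKM in shFTO, against 0.713 and 1.1 FPKM in shCtrl.

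**Figure D3:**
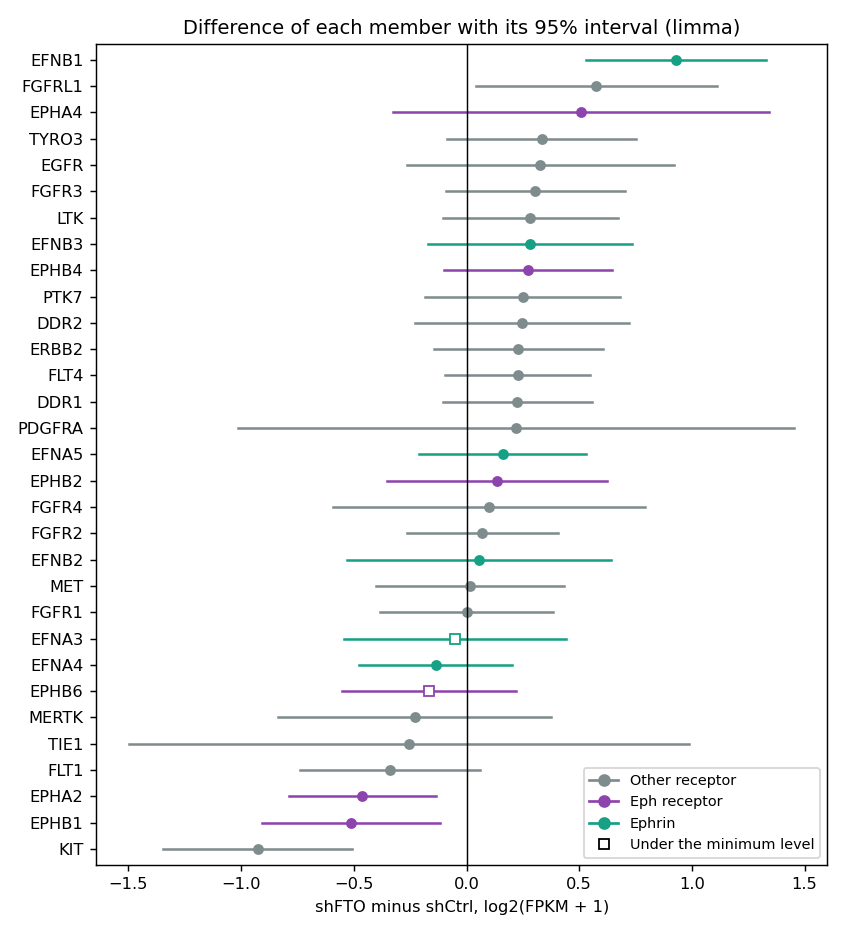
Difference of each member between shFTO and shCtrl on the log2(FPKM + 1) scale, with its 95% confidence interval from limma, ordered from highest to lowest and coloured by class. Open squares are EPHB6 and EFNA3, which were under the minimum level and come from the fit over all 11972 genes. EFNB1 is at 0.93 and KIT at -0.93, and PDGFRA and TIE1 have the widest intervals.

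Across the 29 tested members, 22 lay above shCtrl (75.9%), against 53.8% of all tested genes. Their median log2 difference was 0.22, against 0.02 over all tested genes. The member median was 0.14 with quantile normalization (-0.005 over all tested genes) and 0.19 with median-ratio scaling (-0.0087 over all tested genes). Members above shCtrl numbered 21 and 20 under these scalings. With each library left out in turn they numbered 19 to 23, and the member median ran from 0.15 to 0.17. By class the median was 0.22 for 19 receptors, 0.14 for 5 Eph receptors and 0.16 for 5 ephrins. The groups did not overlap for 17 of the 29 (58.6%), against 42.6% of all tested genes, with 12 higher (24.6% of all tested genes) and 5 lower (18.1%). At least a 1.5-fold ratio of means together with no overlap was found for 4 of the 29, EFNB1, FGFRL1, KIT and EPHB1, against 10.5% of all tested genes. EPHB1 and EFNA4 met the minimum level through shCtrl alone and FLT4 through shFTO alone, which favours genes that differ, so these counts are descriptions of the genes tested.

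Several receptors differed more between the 2 shFTO libraries than between groups. The shFTO values of TIE1, PDGFRA, EPHA4 and FGFR4 differed over 2-fold from each other, 4 of the 29 tested members, against 6.31% of all tested genes, and the shCtrl values of 0 of the 29 did, against 2.55% of all tested genes. The widest shCtrl pair among tested members was 1.6-fold. EPHA4, a receptor that binds both ephrin classes, had 1.42 and 3.94 FPKM in shFTO, against 1.57 and 1.3 FPKM in shCtrl. Its log2 difference was 0.51 (limma adjusted p = 0.626), 1.02 without shFTO replicate 1 and -0.0066 without shFTO replicate 2. Without shFTO replicate 1 TIE1 had a log2 difference of -1.06, and without shFTO replicate 2 it was 0.56. PDGFRA and EPHA4 were thus highest in shFTO replicate 2, and TIE1 and FGFR4 were highest in shFTO replicate 1. These 4 genes were singled out after their values were seen.

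**Figure D4:**
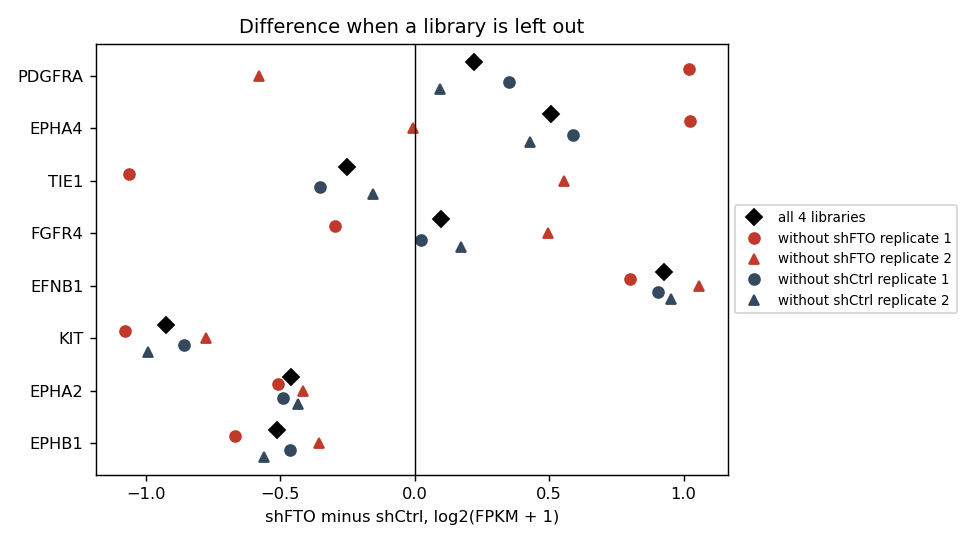
Log2 difference between shFTO and shCtrl for 8 members with all 4 libraries (diamonds) and with each library left out in turn (red, a shFTO library; dark, a shCtrl library; circle replicate 1, triangle replicate 2). PDGFRA runs from -0.58 to 1.02 and TIE1 from -1.06 to 0.56, crossing 0, whereas EFNB1, KIT, EPHA2 and EPHB1 stay on 1 side.

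The ligands, co-receptors, adaptors and inhibitors around these receptors were read from lists chosen by their known function. Of 85 such genes tested, 0 passed in limma and 11 had an unadjusted p under 0.05 (12.9%, against 10.9% of all tested genes), 7 higher and 4 lower in shFTO. Among 23 tested ligands 1 was higher and 2 were lower at that level, among 29 adaptors and relays 2 were higher and 1 lower, among 20 inhibitors 1 was higher and 0 lower, and among 7 co-receptors and sheddases 1 was higher and 0 lower. Among 6 further receptors tested 2 were higher and 1, AXL, was lower. INSR, 1 of those higher, met the minimum level through shFTO alone, which favours genes that differ.

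NRG1, the neuregulin that binds ERBB3 and ERBB4, had the smallest p-value of these genes. NRG1 had 2.98 and 3.65 FPKM in shFTO, against 7.61 and 8.24 FPKM in shCtrl, lower in both libraries (log2 difference -1.05, SE 0.17, limma adjusted p = 0.154). ERRFI1, which encodes the feedback inhibitor of EGFR known as MIG6, had 79.7 and 59 FPKM in shFTO, against 39.3 and 33.2 FPKM in shCtrl (log2 difference 0.90, SE 0.19, limma adjusted p = 0.234). For both genes the groups did not overlap, as for 42.6% of all tested genes. Both were named for an unadjusted p under 0.05, which favours such genes. EGFR, whose values overlapped, was named for its level, so the genes were not chosen alike.

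VEGFA, the ligand of FLT1, had 8.04 and 6.82 FPKM in shFTO, against 4.68 and 4.83 FPKM in shCtrl (log2 difference 0.55, limma adjusted p = 0.345). NRP2, a co-receptor for VEGF and semaphorins, had 9.34 and 6.17 FPKM in shFTO, against 4.77 and 4.13 FPKM in shCtrl (log2 difference 0.66, limma adjusted p = 0.395). ANGPT1, the ligand of TEK, had 0.271 and 1.05 FPKM in shFTO, against 1.67 and 1.39 FPKM in shCtrl. In each of these 3 genes, also named for an unadjusted p under 0.05, the groups did not overlap.

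GRB10, an adaptor that restrains insulin and IGF1 receptors, had 12.8 and 13 FPKM in shFTO, against 7.72 and 6.56 FPKM in shCtrl (log2 difference 0.77, SE 0.16, limma adjusted p = 0.21). INSR, the insulin receptor, had 1.16 and 1.46 FPKM in shFTO, against 0.825 and 0.698 FPKM in shCtrl, and its substrate IRS2 had 1.87 and 1.41 FPKM in shFTO, against 2.83 and 2.99 FPKM in shCtrl. INSR was higher and IRS2 lower in shFTO in both libraries, and neither passed (limma adjusted p = 0.433 and 0.329). INSR met the minimum level through its shFTO libraries alone. ROR2, a receptor for WNT5A, had 2.53 and 2.5 FPKM in shFTO, against 1.73 and 1.6 FPKM in shCtrl. PTPN11, which encodes the phosphatase SHP2 that relays receptor signals to RAS, had 40.7 and 58 FPKM in shFTO, against 36.9 and 30.4 FPKM in shCtrl (log2 difference 0.52, limma adjusted p = 0.459).

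**Figure D5:**
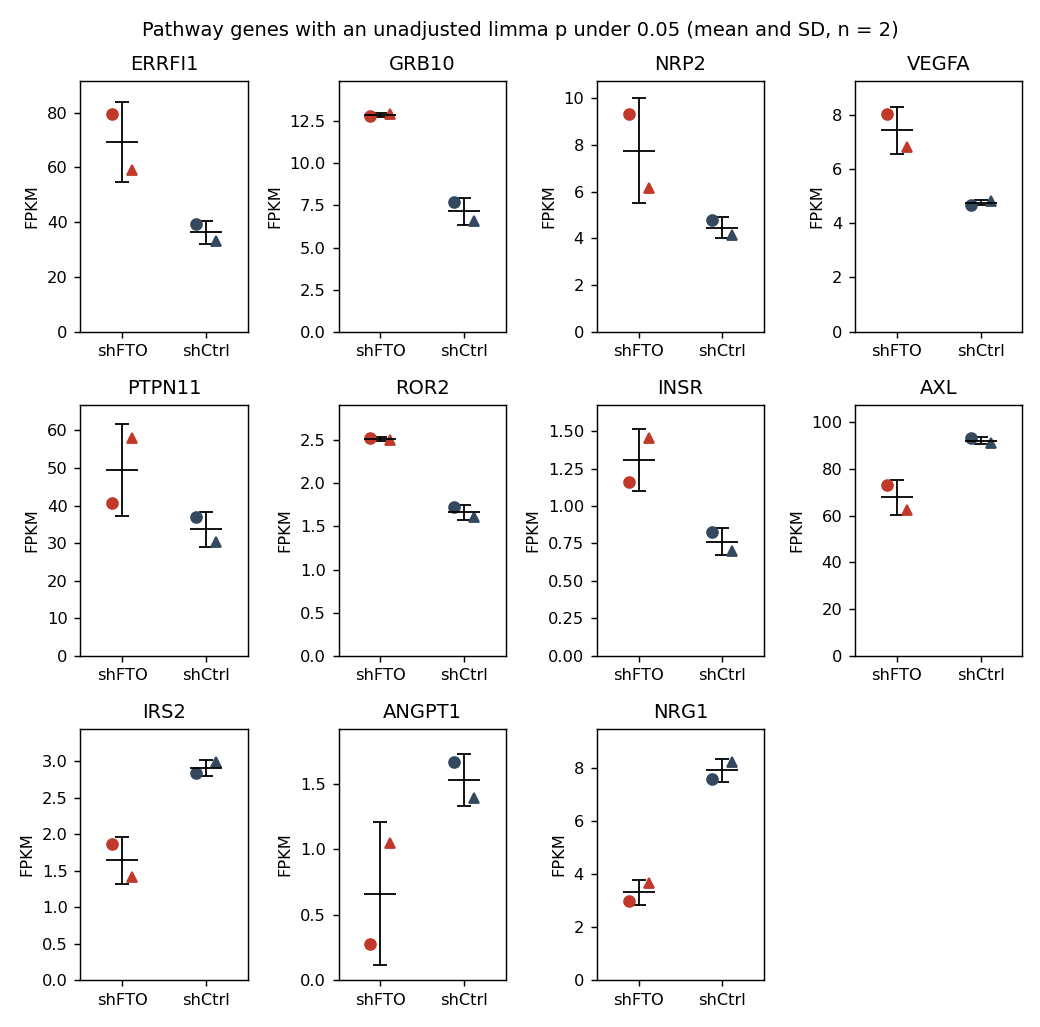
FPKM of the 11 ligands, co-receptors, adaptors, inhibitors and further receptors with an unadjusted limma p under 0.05, ordered from the highest to the lowest log2 difference, with shFTO left of shCtrl. Points are libraries (circle replicate 1, triangle replicate 2), and bars are the mean and SD over 2 libraries. ERRFI1 to INSR lie higher and AXL to NRG1 lower in shFTO.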

How the data were processed

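RNA from stable 143B cells was enriched for polyadenylated transcripts and made into dUTP-marked libraries, per the labels. StringTie, HISAT2 2.0.5, STAR 2.5.2b, cutadapt and the build hg19 are named, without their roles, in the submitters' processing notes. The authors deposited FPKM per library for 11972 genes whose higher group mean was at least 0.5001. The deposited group columns were recomputed as means of log2(FPKM + 1), with the deposited log2 fold change their difference and the deposited fold 2 to that power. P-values and q-values are the authors' deposited ones where named.

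Groups were compared on log2(FPKM + 1) with limma 3.58.1 (R 4.3.3) and a mean-variance trend. A gene was tested, as 10873 were, when 2 or more libraries had 1 FPKM or more, with a Benjamini-Hochberg adjusted p under 0.05. The scale understates changes of low genes. The step was tested on simulated data, with larger changes than any member showed and the same spread in both groups. The changed genes there lay above the level of many members, so that test does not cover differences like theirs. Library values under 0.05 FPKM numbered 2 to 9 per library apart from zeros, so whole reads could not be read from the values.

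Members, families and lists were chosen with earlier results of these data known. Full values went to members with an unadjusted p under 0.05, to those without overlap and at least 1.5-fold, and to the highest of each family; other members were added. Gene coordinates follow the deposited table (hg19). Promoters came from RefSeq (GRCh38.p14), with 28 of 31 members matched by symbol, and coding sequences from GENCODE 29. Alternatives were a pseudocount of 0.1, no filter or 1 on a mean of 5 FPKM, 2 other scalings, no trend, a replicate block and each library left out.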

Additional observations from a re-analysis of the deposited data

How the results depend on the processing

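The count of members called was 0 in limma with a pseudocount of 0.1, with no filter, with a mean of at least 5 FPKM, with quantile normalization, with median-ratio scaling, without the trend and with either replicate block. Leaving out 1 library gave 0 to 4 called members, 4 without shFTO replicate 1 (PDGFRA and EPHA4 higher, KIT and TIE1 lower), 1 without shFTO replicate 2 (EFNB1) and 0 without either shCtrl library (2 and 3 at unadjusted p under 0.05). Pathway genes called ran from 0 to 4. Over all tested genes 3 were called by limma, against 0 with a pseudocount of 0.1 (1167 at unadjusted p under 0.05), 1 with no filter, 1 with median-ratio scaling, 1 without the trend and 0 to 429 with 1 library left out (429 without shFTO replicate 1, 217 without shFTO replicate 2). A fit without 1 shFTO library takes its spread from the shCtrl pair alone, so its counts do not compare with those from all 4 libraries. The shCtrl pair lay closer together, with a median absolute log2 difference of 0.15, against 0.21 for the shFTO pair, over all tested genes. How far this set the counts was not tested. With the replicate number as a block 15 genes were called. Same-numbered libraries deviated in opposite ways (r = -0.192 across 10873 genes), and with the crossed pairing, added after seeing the data, the count was 0 (1430 at unadjusted p under 0.05). Neither block called a member.

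FGFR1 turned to -0.063 with quantile normalization and -0.030 with median-ratio scaling, and MET to -0.021 with median-ratio scaling. Sign also turned in some fits that left out 1 library, with log2 differences from -0.059 to 0.059 for FGFR1, -0.15 to 0.18 for MET, -0.58 to 1.02 for PDGFRA, -1.06 to 0.56 for TIE1, -0.0066 to 1.02 for EPHA4, -0.080 to 0.35 for EPHB2, -0.24 to 0.35 for EFNB2, -0.30 to 0.50 for FGFR4 and -0.49 to 0.034 for MERTK. With 1 library left out, members that kept their sign but moved by over 1.5 times included EGFR (0.043 to 0.61), DDR2 (0.057 to 0.44), EFNB3 (0.11 to 0.45), LTK (0.14 to 0.43), PTK7 (0.10 to 0.40) and FGFRL1 (0.38 to 0.78). What read depth limits could not be measured, since FPKM hold no counts.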

Other observations

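The m6A mark that FTO removes is placed mostly in the context GGACT and its variants. GGACT was counted on the coding strand of the longest coding sequence of each gene in GENCODE 29. It was found in 28 of the 31 members and in 74.9% of 11861 matched genes, whose coding sequences differ in length. Per kilobase of coding sequence the median was 1.46 in the members and 0.97 over all matched genes. EFNB1, higher in shFTO, held 2 in 1038 coding bases, and EPHA2, lower in shFTO, held 6 in 2928. FGFRL1, higher in shFTO, held 1 in 1512. KIT and EPHB1, lower in shFTO, held 2 in 2928 coding bases and 7 in 3165. FGFR4, EFNB3 and EFNA3 held none in their coding sequences. Over the whole transcript, untranslated parts included, EFNB3 held 3, EFNA3 held 2 and FGFR4 held 0. On that count EFNB1 held 5, FGFRL1 3, EPHA2 9, KIT 3 and EPHB1 8. Methylation was not measured in these libraries, so the counts describe sequence only.

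The closest neighbours among the member genes formed 4 pairs. KIT and PDGFRA, 359.7 kb apart, had log2 differences of -0.93 and 0.22, and PDGFRA ranged from -0.58 without shFTO replicate 2 to 1.02 without shFTO replicate 1. EFNA4 and EFNA3, 9.3 kb apart, had -0.14 and -0.05, TYRO3 and LTK, 43.8 kb apart, had 0.33 and 0.28, and FGFRL1 and FGFR3, 774.3 kb apart, had 0.58 and 0.31. None of these differences passed in limma, and differences between neighbours were not tested.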
